A study of Homo sapiens with 4 samples.

Results

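The inhibitor of DNA binding genes *ID1*, *ID2*, *ID3* and *ID4* and the BMP signalling genes *SMAD6*, *SMAD1* and *BMPR1A* were followed through 4 single-cell RNA libraries of A375, a cell line long established from a human melanoma and mutated to BRAF V600E. These 7 genes were picked for the fall of *ID3* in the vemurafenib-resistant library, so that the values of that library over the untreated one are a description of how they were chosen and carry no test. All 7 were listed in every count table, among 32991 genes that the 4 tables share, and 6 of the 7 passed a mean level of 1 CPM over the libraries, *ID4* being the exception. A UMI (unique molecular identifier) is a counted transcript molecule, and CPM are the UMIs of a gene per 1000000 UMIs of its library.

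ID proteins are helix-loop-helix proteins without a DNA-binding region. They bind the E proteins and other partners and keep them off DNA, and are known for holding cells in a less differentiated, dividing state, in melanoma as in other tumors. Bone morphogenetic proteins (BMPs) bind paired type I and type II receptors, which phosphorylate SMAD1, SMAD5 and SMAD9. With SMAD4 these enter the nucleus and switch on target genes, of which the *ID* genes are the classical ones and *SMAD6*, an inhibitory SMAD, is a feedback brake.

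The untreated cells (S) were compared with cells kept 10 to 14 days on vemurafenib, a BRAF inhibitor (RV), or on vemurafenib with a MEK1/2 inhibitor, cobimetinib (RVC) or trametinib (RVT). The drugs were dosed below the IC50 and taken away 24 h before capture. Each condition was captured as 1 library of 1 cell line, loaded at 10000 cells, and the number of separate cultures behind it is not given in the sources used here. The drugs cannot be told apart from differences between the libraries. No replicate exists, no difference between conditions was tested, and the ranges given are exact 95% intervals for counting error only. PCR and culture differences are not in them.

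After filtering, 6334 S, 4177 RV, 7623 RVC and 8445 RVT cells were left, with between 25407545 and 58611860 UMIs in a library. The median cell held 8807.5 UMIs in S and 11553 in RV, but 3959 in RVC and 2871 in RVT. RVC and RVT were counted on another gene annotation than S and RV, so that RV over S and RVT over RVC were the comparisons between like libraries. Any pair of libraries shared 38 to 149 cell barcodes, at most 1.61% of the smaller library. The doublet caller's own threshold marked 0 to 5 barcodes per library and was replaced by a fixed removal rate. The summed level of 6 melanocyte markers was 10.1 to 43.2 CPM. Most of it was *MITF*, at 9.78, 20.2, 8.13 and 41.3 CPM from S through RV and RVC to RVT. *TYRP1* had 0.0682, 0.0191, 4.76 and 1.65 CPM in that order. *TYR*, the key enzyme of pigment synthesis, was at 0 UMIs in all 4 libraries. Immune cell markers summed to at most 0.783 CPM and endothelial markers to at most 1.40 CPM. Epithelial markers summed to at most 11.4 CPM. Of the 6 fibroblast markers *COL1A2* and *COL3A1* were at 0 in S and RV and all had UMIs in RVC, their sums being 0.819, 0.878, 182 and 36.7 CPM from S through RV and RVC to RVT. The 13 neural crest-like markers summed to 1237, 391, 178 and 625 CPM in that order, most of it from *CD74* at 808, 257, 162 and 516 CPM. *SOX10* had 86.3, 39.9, 0 and 19.4 CPM and *ERBB3* 65.8, 13.9, 0.303 and 0.630 CPM, and of the 8 markers past 1 CPM 6 were at least 2-fold lower in RVT than in S, beside 21.6% of all genes. The part of either list in the member values was not tested.

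*ID1* (ENSG00000125968, chr20:31605283-31606515, plus strand, GRCh38) and *ID3* (ENSG00000117318, chr1:23557918-23559794, minus strand) lie on different chromosomes, as do *ID2* (chr2:8678845-8684453, plus strand) and *ID4* (chr6:19837386-19840684, plus strand). *SMAD6* lies at chr15:66702228-66782848, *SMAD1* at chr4:145481194-145558079 and *BMPR1A* at chr10:86756601-86932838, all on the plus strand. All 7 are protein-coding. The promoters of *ID1* and *ID3*, whose levels by library size went the same way in each comparison, and of *ID2*, whose levels did not, are printed here because of that contrast. Each is the 250 bases before the RefSeq start, read 5′ to 3′ on the strand of the gene in GRCh38.p14. Capitals mark GTCT, the short SMAD-binding sequence, or the same letters read from the other strand (AGAC).
ID1: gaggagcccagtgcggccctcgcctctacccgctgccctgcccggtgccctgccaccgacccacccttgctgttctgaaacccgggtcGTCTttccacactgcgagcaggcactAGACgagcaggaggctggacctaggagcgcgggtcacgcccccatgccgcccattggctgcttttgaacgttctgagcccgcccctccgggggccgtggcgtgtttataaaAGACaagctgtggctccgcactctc
ID3: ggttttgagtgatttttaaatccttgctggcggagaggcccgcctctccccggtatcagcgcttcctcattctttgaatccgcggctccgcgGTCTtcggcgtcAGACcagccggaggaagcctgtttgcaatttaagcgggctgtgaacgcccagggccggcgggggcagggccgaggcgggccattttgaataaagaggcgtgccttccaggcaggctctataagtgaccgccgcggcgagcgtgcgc
ID2: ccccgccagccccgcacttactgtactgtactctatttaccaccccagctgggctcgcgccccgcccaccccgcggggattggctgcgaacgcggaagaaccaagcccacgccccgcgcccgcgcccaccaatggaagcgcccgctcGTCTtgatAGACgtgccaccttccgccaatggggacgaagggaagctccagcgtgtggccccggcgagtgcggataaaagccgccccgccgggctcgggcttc

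The *ID1* stretch, chr20:31605039-31605288, held the GTCT letters 3 times, the first beginning 162 bases before the start. The *ID3* stretch, chr1:23559502-23559751, held them 2 times, 158 and 146 bases before the start, and the *ID2* stretch, chr2:8681806-8682055, held them 2 times, 103 and 95 bases before it. These 4 letters are common, being present on either strand in 84.0% of 35116 RefSeq windows of 300 bases (250 before the start and 50 after). The 6 letters GGCGCC, a core of the longer BMP response element, were in 19.2% of all windows. Among the members only *SMAD1* had them, in 2 of its 5 windows. GGCGCC followed after 5 bases by GTCT was in 0.103% of all windows and in no window of a member. Bases further than 250 before the start were not searched, so elements lying there would be missed. The E-box letters CAGCTG, a site for E proteins, were in 17.9% of all windows and in those of *ID2* and *ID4* and in 1 *SMAD1* window. CACCTG was in 20.6% of all windows and in none of the members.

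*ID3*, the gene the set was picked for, had 250.2 CPM in S (246 to 254) and 64.4 CPM in RV (62.2 to 66.6). RVC held 19.1 CPM (17.7 to 20.7) and RVT 400.2 CPM (392 to 408). The order of the levels was thus RVC, RV, S and RVT, and no 2 neighbours in it overlapped in their counting intervals. *ID3* in RV was 3.88-fold below S (3.74 to 4.03), and in RVC it was 13.1-fold below S (12.1 to 14.2). RVT stood 20.9-fold above RVC (19.3 to 22.7) and 1.60-fold above S (1.56 to 1.64).

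*ID1* kept the same order. S held 231 CPM (227 to 235) and RV 107 CPM (104 to 109.9), whereas RVC held 29.5 CPM (27.6 to 31.4) and RVT 267 CPM (260.4 to 273). The ratio was 2.15-fold lower in RV than in S (2.09 to 2.22) and 7.83-fold lower in RVC than in S (7.34 to 8.37). RVT was 9.06-fold higher than RVC (8.47 to 9.70). Between S and RVT the order of *ID1* depended on the scaling, since the log2 ratio of RVT over S was 0.21 by library size and -0.31 with TMM factors, which also moved the *ID3* ratio from 0.68 to 0.16.

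*ID2* did not follow *ID1* and *ID3*. S held 2.63 CPM of it (2.23 to 3.08) and RV 1.64 CPM (1.31 to 2.03), whereas RVC held 16.1 CPM (14.8 to 17.5) and RVT 45.4 CPM (42.8 to 48.1). It was 1.60-fold lower in RV than in S (1.222 to 2.11). In RVC it was 6.13-fold above S (5.11 to 7.38) where *ID1* and *ID3* were below S, and in RVT it was 17.3-fold above S (14.6 to 20.6). Centring on GC content moved the log2 ratio over S from 2.62 to 2.02 in RVC and from 4.11 to 3.34 in RVT. The RV value rested in part on 1 cell, which held 16 of the 86 *ID2* UMIs, and without it the level was 1.34 CPM. In the other libraries no cell held more than 4 *ID2* UMIs. An antisense gene on the other strand, *ID2-AS1*, had at most 4 UMIs in a library.

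*ID4* was the rarest of the 4, with 12 UMIs in S, 33 in RVT and 0 in RV and RVC. Its level was 0.205 CPM in S (0.106 to 0.358) and 1.30 CPM in RVT (0.894 to 1.82), and the exact intervals of the 0 counts reach up to 0.0704 CPM in RV and 0.112 CPM in RVC. The interval of RVC thus overlapped that of S, and the interval of RV did not. Such an overlap does not decide whether *ID4* was lower in RVC than in S, and no interval was made for a ratio to 0 UMIs. RVT was 6.34-fold above S (3.19 to 13.5), a log2 ratio of 2.67 that centring on GC content moved to 1.89. The gene overlaps an antisense gene, *AL022068.1*, for which S held 32 UMIs, RV 7, RVC 27 and RVT 97. Whether counting used the strand is not given in the sources used here, and without it the reads of the pair cannot be told apart.

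*SMAD6*, the inhibitory SMAD that BMP signalling induces, was rare in S, at 0.682 CPM (0.488 to 0.929), and in RV, at 0.935 CPM (0.692 to 1.24). RVC held 1.33 CPM (0.970 to 1.79) and RVT 6.30 CPM (5.36 to 7.35). The intervals of neighbouring libraries overlapped from S to RVC, although that of RVC lay above that of S, and RVT lay above the other 3. RVT was 9.23-fold above S (6.49 to 13.4) and 4.72-fold above RVC (3.36 to 6.75). In RV, where *ID1* and *ID3* were lower than in S, *SMAD6* was 1.37-fold higher (0.884 to 2.14), an interval that spans both directions.

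*SMAD1*, which carries the signal to the nucleus, stood at 2.61 CPM for S (2.21 to 3.06) and 2.96 CPM for RV (2.51 to 3.46), with 3.97 CPM for RVC (3.32 to 4.72) and 8.15 CPM for RVT (7.08 to 9.34). S and RV overlapped, as did RV and RVC, while RVC lay above S and RVT lay above all. Centring on GC content moved the log2 ratio of *SMAD1* in RVC over S from 0.61 to 0.20. *BMPR1A*, a type I BMP receptor, was lowest in RV, at 3.15 CPM (2.69 to 3.67), and next in S, at 4.42 CPM (3.90 to 4.99). RVC held 7.55 CPM (6.64 to 8.55) and RVT 15.1 CPM (13.6 to 16.7), with no overlap between neighbours. RVT was the highest library for all 7 members by library size. It also had the highest median share of mitochondrial UMIs, 5.77% against 3.06% to 3.58% in the others. Of its 10427 barcodes 580 were over the mitochondrial limit and 1084 under 500 genes. RVC was much alike in this, with 478 and 903 of 9266 barcodes, whereas S and RV had 0 to 2. The part of RNA quality in the member values was not tested. RVT was also the library whose genes were shifted up most as a whole. The median log2 ratio of RVT over S was 0.41 over 12672 genes, against 0.02 for RV over S and 0.21 for RVC over S. With TMM factors the RVT median was -0.11, and S then held the highest *ID1*.

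**Figure D1:**
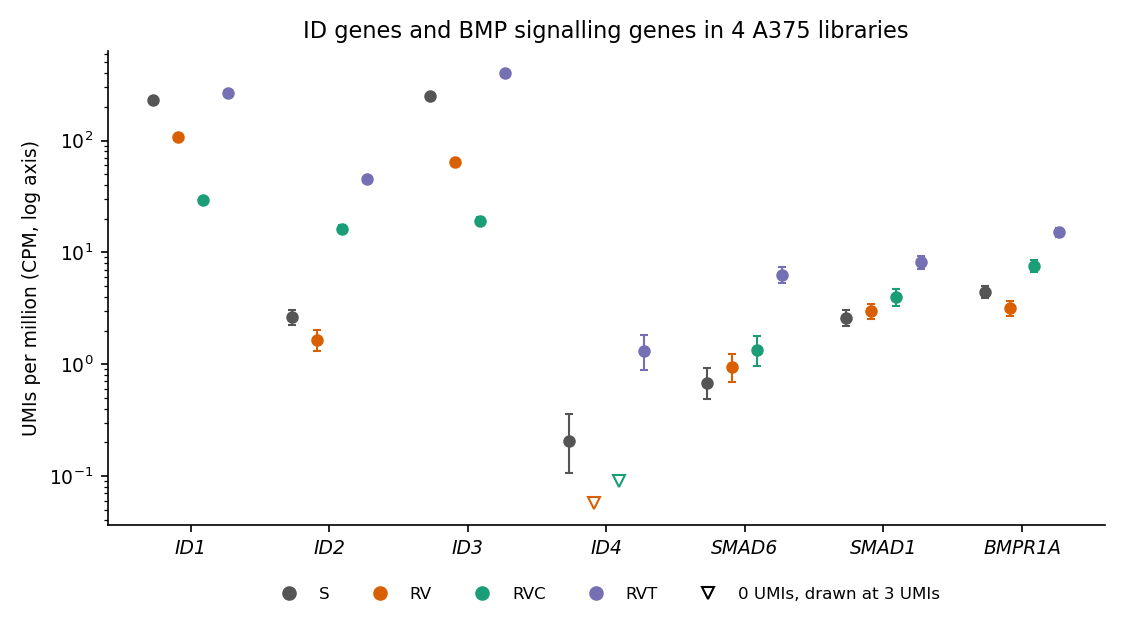
Level of each member in the 4 libraries in CPM on a log axis, with exact 95% Poisson intervals (counting error only) and open triangles at the level of 3 UMIs where no UMI was counted. *ID1* and *ID3* run from RVC through RV and S to RVT, whereas *ID2* and *BMPR1A* are lower in S and RV than in RVC and RVT.

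A gene is counted as changed below where its CPM differed at least 2-fold between the libraries. The counts are over the 6 members with a mean of at least 1 CPM, *ID4* left out, beside all genes past the same filter. In RV over S 2 of the 6 were lower (*ID1* and *ID3*) and 0 were higher, beside 6.72% of 12640 genes in either direction; the rule chose on this contrast and nothing is read from the count. In RVC over S 1 was higher (*ID2*) and 2 were lower (*ID1* and *ID3*), beside 46.1% of 12670 genes. In RVT over S 4 were higher and 0 lower, *ID1* and *ID3* being within 2-fold, beside 55.7% of 12672 genes in either direction and 34% higher. In RVT over RVC 5 were higher and 0 lower, beside 33.8% of 12642 genes in either direction and 21.7% higher, and *BMPR1A* lay at 2.00-fold (1.70 to 2.35), just under the limit. The filter is on the mean of the 4 libraries, so that a gene can pass it through the library where it is high, and no support is drawn from these counts. The comparisons with S share the S library and are not independent of each other. With 46.1% of genes past 2-fold in RVC over S and 55.7% in RVT over S, a change of that size there did not set a gene apart.

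**Figure D2:**
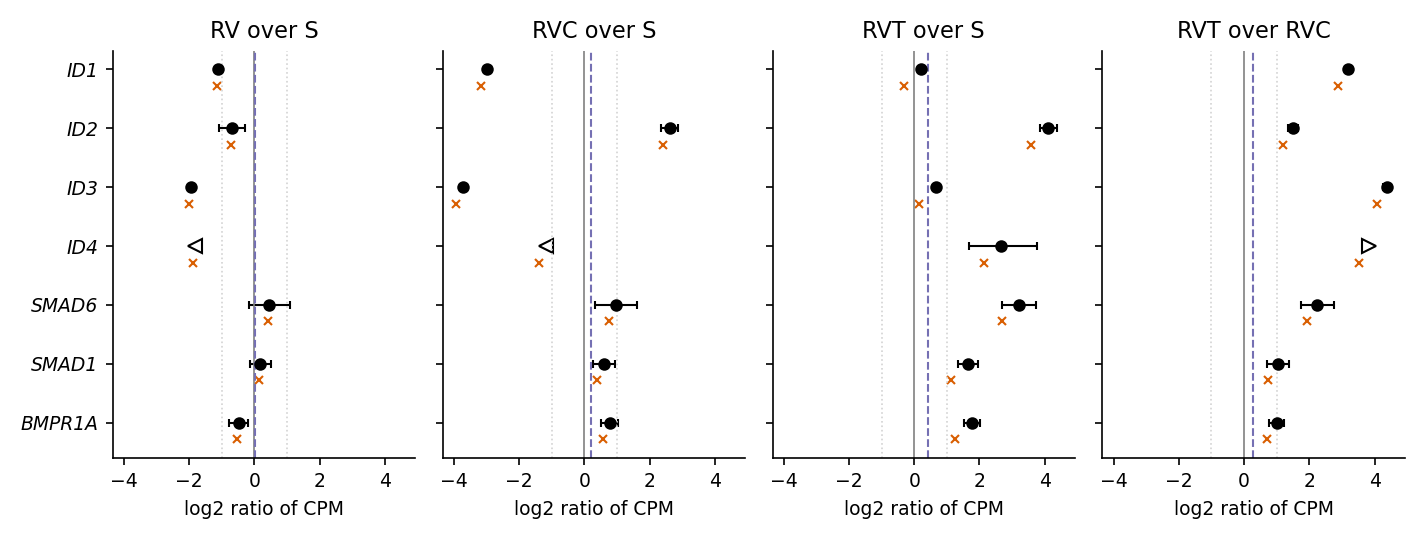
Log2 ratio of CPM of each member in 4 comparisons, filled points with 95% counting intervals by library size, crosses with TMM factors, open triangles where 1 library had no UMI and was set to 3 UMIs, a placement without counting error. The dashed line is the median of all genes with a mean of at least 1 CPM and dotted lines mark 2-fold. *ID1* and *ID3* lie furthest to the left in RVC over S, at -2.97 and -3.71, and lie at 3.18 and 4.39 in RVT over RVC, with the triangle of *ID4* between them.

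At the level of single cells, an *ID3* UMI was found in 73.0% of S (71.8 to 74.0) and 38.3% of RV cells (36.8 to 39.8). RVC had it in 7.53% (6.95 to 8.15) and RVT in 64.4% (63.4 to 65.4). For *ID1* the S share was 73.1% (72.0 to 74.2), the RV share 58.6% (57.1 to 60.1), the RVC share 11.1% (10.4 to 11.9) and the RVT share 51.5% (50.4 to 52.5). As the libraries differed in depth, the counts of each cell were also drawn down at random to 1500 UMIs (thinned), which left out 397 RVC and 845 RVT cells and no S or RV cell. At this depth the *ID3* share was 28.5% for S (27.4 to 29.6), 8.74% for RV (7.90 to 9.64), 2.82% for RVC (2.45 to 3.23) and 44.1% for RVT (42.9 to 45.2). The *ID1* share was 27.8% for S (26.7 to 28.97), 14.8% for RV (13.7 to 15.9), 4.14% for RVC (3.69 to 4.62) and 33.3% for RVT (32.2 to 34.4). The order of the thinned shares was thus the order of the CPM, while the unthinned shares placed RVT below S for both genes. Thinning to a fixed total scales by all UMIs as CPM does, so the shared order is no separate evidence for it. The cultures were 1 cell line without cells known to lack the *ID* genes, so a background of free RNA could not be set beside the shares.

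Thinned cells with a UMI of *ID3* held 1.33, 1.16, 1.05 and 1.41 UMIs of it on average from S through RV and RVC to RVT. The Fano factor, the variance of the thinned counts over their mean, was 1.29, 1.28, 1.07 and 1.14 for *ID3* in that order, a value of 1 being what random draws from like cells would give. For *ID1* it was 1.24, 1.2504, 1.04 and 1.07. RVT therefore had the highest levels of both genes in CPM and less spread between cells than S or RV. The largest count in any cell was 26 UMIs for *ID1*, in RV, and 23 for *ID3*, in S and in RV. The thinned *ID2* share was 0.347% for S (0.218 to 0.525), 0.215% for RV (0.0986 to 0.409), 2.32% for RVC (1.99 to 2.70) and 6.72% for RVT (6.17 to 7.31). *SMAD6*, *SMAD1* and *BMPR1A* were seen in at most 2.38% of thinned cells of any library.

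*ID1* and *ID3* were found in the same cell more often than the product of their single shares in S, RV and, by a narrow margin, RVT. Of the thinned S cells 10.2% held both (9.49 to 11.0), where the product was 7.93%, a ratio of 1.29 (1.20 to 1.39). In RV 2.03% held both (1.63 to 2.51), where the product was 1.29%, a ratio of 1.58 (1.26 to 1.94). RVC had only 11 cells with both, a ratio of 1.30 (0.651 to 2.33) that cannot be told from 1 at this depth. In RVT 15.6% held both (14.7 to 16.4), where the product was 14.7%, a ratio of 1.06 (1.01 to 1.12). These are cells of 1 library each and not replicates of a condition.

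**Figure D3:**
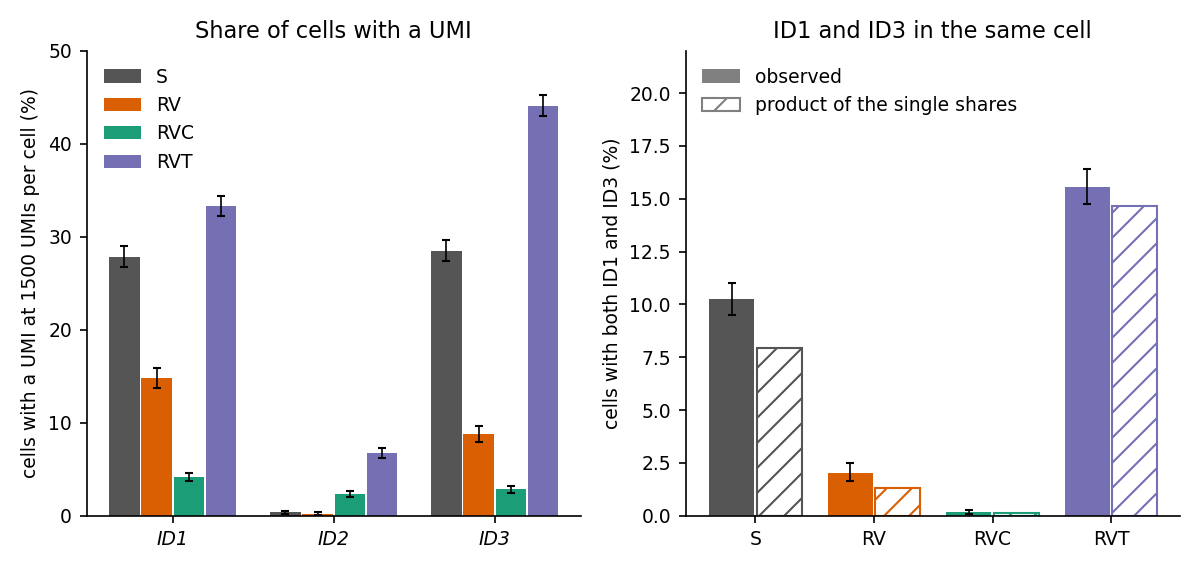
Left, share of cells with a UMI of *ID1*, *ID2* and *ID3* after thinning to 1500 UMIs per cell, with Clopper-Pearson 95% intervals. Right, share of cells with both *ID1* and *ID3* (filled) beside the product of the single shares (hatched). The filled bar stands clear of the hatched one in S (10.2% against 7.93%) and lies close to it in RVT (15.6% against 14.7%).

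The full counts were compared in the same cells. S cells with a thinned *ID1* UMI had 336 CPM of *ID3* and the other S cells 218 CPM, a ratio of 1.54 (1.49 to 1.59). In RV these were 95.6 and 59.5 CPM, a ratio of 1.61 (1.48 to 1.75), and in RVT 431 and 380.3 CPM, a ratio of 1.13 (1.09 to 1.18). In RVC they were 26.0 and 18.8 CPM, a ratio of 1.38 with an interval that spans both directions (0.952 to 1.94). Other BMP target genes in the same S cells differed among themselves. *HEY1*, a transcriptional repressor, was 1.69-fold higher in S cells with an *ID1* UMI than in those without (1.26 to 2.25), *ID2* 1.66-fold (1.18 to 2.32) and *ATOH8*, a basic helix-loop-helix factor, 1.61-fold (1.16 to 2.21). *BAMBI*, a decoy receptor, had a ratio of 0.852, with an interval that spans both directions. That of *NOG*, a secreted antagonist, was 0.912 (0.471 to 1.67) and spans both directions too. Outside S, the ratio was 2.99 for *ATOH8* in RV (1.12 to 7.30). For *ID2* it was 1.57 in RVC (1.07 to 2.23) and 1.23 in RVT (1.08 to 1.39). Intervals spanned both directions for *ATOH8* in RVC (0.146 to 2.17) and RVT (0.784 to 1.21), and *ID2* in RV (0.786 to 2.52). They did so too for *HEY1* in RV (0.767 to 3.03), RVC (0.0366 to 10.0) and RVT (0.494 to 2.79). Among these intervals that spanned both directions, only that of *ATOH8* in RVT left out the ratio of the same gene in S. For *ATOH8* this contrast depended on the gene that split the cells. With cells split by a thinned *ID3* UMI instead, its ratio was 1.252 in RVT (1.02 to 1.53) and 1.34 in S (0.965 to 1.85). In that split the S interval spanned both directions and the RVT interval did not.

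Over single S cells, the gene whose thinned counts followed *ID1* most closely, of 1882 genes with at least 50 CPM in S, was *ID3*, and the one that followed *ID3* most closely was *ID1*. The Pearson correlation between them was 0.13 over 6334 S cells, 0.09 over 4177 RV cells, 0.01 over 7226 RVC cells and 0.05 over 7600 RVT cells. In counts as sparse as these, such values describe the ranking and little else. The next genes for *ID1* were *AC023043.1*, *TUBB*, *SSBP1* and *DDIT4*, none above 0.05, and for *ID3* *H3F3B*, *KRT81*, *HIST1H4C* and *TUBB*, none above 0.07.

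Over the 4 libraries, the gene with the profile most like that of *ID3* among 6503 genes with a mean of at least 10 CPM was *SLC26A2*, a sulfate transporter. Its levels were 206, 56.2, 15.7 and 434 CPM from S through RV and RVC to RVT, a distance of 0.33 on the log2 scale after each profile was centred. *ID1* came next at 1.08, followed by *SPRY1* (1.14), *ITGB8* (1.19) and *HLA-DRA* (1.20). For *ID1* the nearest genes were *FCGR2A* (0.42), *AIF1L* (0.67), *HLA-DRA* (0.75), *IRS2* (0.77) and *NFIB* (0.81), and *ID3* was in place 15. Each profile rests on 4 points.

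The levels are next given by groups of cells within a library, as a description, since the RV over S values are those the set was picked on. Cells were first split by whether they held UMIs of at least 3 of 13 neural crest-like markers (such as *SOX10*, *ERBB3* and *CD74*), which 57.4% of S cells and 22.5% of RV cells did. *ID3* was at 236 CPM in marker-positive S cells and 80.2 CPM in marker-positive RV cells, 2.94-fold lower in RV (2.74 to 3.15). In the other cells it was at 269 and 60.0 CPM, 4.49-fold lower in RV (4.29 to 4.70). *ID1* was 1.77-fold lower in RV in the marker-positive cells (1.67 to 1.88) and 2.40-fold lower in the others (2.31 to 2.50). Within S the marker-positive cells had slightly less *ID3* than the others, and within RV they had 1.34-fold more (1.24 to 1.44). With at least 2 markers as the limit the RV ratio was 1.20, outside that interval. Since markers are counted as detected, the split depends on depth, and only 1.61% of RVT cells and under 50 RVC cells held at least 3.

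Cells were also split by the phase called from cell cycle gene lists. *ID3* was at 237 CPM in G1-called, 289 in S-phase-called and 269 in G2/M-called S cells, and at 68.0, 59.6 and 59.7 CPM in the same classes of RV cells. *ID3* was 3.49-fold (3.32 to 3.66), 4.86-fold (4.34 to 5.44) and 4.51-fold (4.201 to 4.84) lower in RV in these classes. In RVC the 3 classes ran from 17.5 to 19.6 CPM with overlapping intervals, and in RVT from 372 to 409 CPM. S cells with a UMI of *LINC01419*, a long noncoding RNA that splits the S library, had 244 CPM of *ID3* and those without had 265 CPM, a ratio of 0.922 (0.890 to 0.955). The median cell held 9075 UMIs with the RNA and 8189.5 without. With a limit of at least 3 *LINC01419* UMIs the *ID3* ratio was 0.973, outside that interval. For *ID1* the ratio of cells with over without a *LINC01419* UMI was 0.953 (0.918 to 0.989). In RVC the same split gave 17.7 CPM of *ID3* with and 27.6 CPM without the RNA, 1.56-fold lower (1.28 to 1.90), the median cell holding 4253 and 2786 UMIs, and 30.2 against 25.2 CPM of *ID1*, a ratio of 1.20 (0.992 to 1.46).

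**Figure D4:**
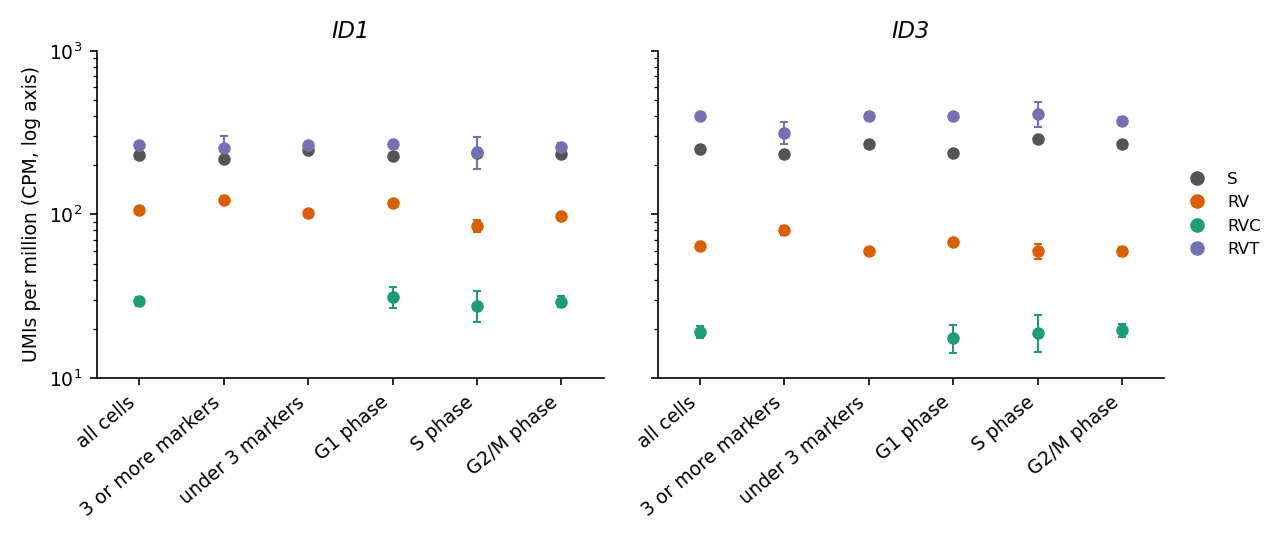
Level of *ID1* and *ID3* in all cells of a library, in cells with and without 3 or more neural crest-like markers, and in cells by called phase, in CPM on a log axis with 95% counting intervals. The marker split is not drawn for RVC, where fewer than 50 cells passed it. *ID3* in the cells with 3 or more markers is drawn at 236 CPM for S and 80.2 CPM for RV.

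The rest of the BMP pathway was taken from lists of ligands, receptors and co-receptors, SMADs, inhibitors inside the cell, secreted antagonists and other target genes, 53 genes without the members. Of these 46 had a UMI in some library and 26 passed a mean of 1 CPM. In RV over S 2 of the 26 were higher and 6 lower, beside 3.48% of all genes higher and 3.24% lower, and the median log2 ratio of the 26 was -0.31 against 0.02 for all genes. The lists were chosen with results of these data known, and nothing particular to them is read from the counts.

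Of the 8 other BMP target genes that passed 1 CPM, 5 were lower in RV than in S and 1 was higher, beside the 3.24% and 3.48% of all genes, and the median log2 ratio of the 8 was -1.16. For 1 of the 5, *SMAD9*, the interval includes no change. *MSX2* and *SMAD9* were under 1 CPM in both S and RV and passed the filter through RVC and RVT. No support is drawn from the count. For the genes that follow, 4 levels in a row run from S through RV and RVC to RVT. *BAMBI* had 2.54, 0.420, 2.52 and 7.52 CPM and was 6.05-fold lower in RV than in S (3.85 to 9.95). *ATOH8* had 2.95, 0.477, 3.003 and 16.2 CPM, 6.19-fold lower in RV than in S (4.05 to 9.82). In RVC, where *ID1* and *ID3* were lowest, both were near S, with ratios over S of 0.990 for *BAMBI* (0.748 to 1.30) and 1.02 for *ATOH8* (0.787 to 1.31), and both were highest in RVT.

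*HEY1* had 3.53, 1.15, 0.485 and 1.06 CPM, so that it was lower than in S in all 3 resistant libraries. *MSX2*, a homeobox factor, had 0.870 CPM in S and 0.382 in RV, 2.28-fold lower (1.34 to 4.04), but had 20.8 CPM in RVC and 17.0 in RVT. *SMAD9*, at once a signal carrier and a target, had 22 UMIs in S and 9 in RV, 2.18-fold lower with an interval that reaches 1 (0.967 to 5.39), and 7.75 CPM in RVT. *MSX1*, the sister of *MSX2*, had 4.98 CPM in S and 7.12 in RV and stayed within 2-fold. *NOG* (noggin), a secreted protein that captures BMPs and is also induced by them, went the other way, from 1.01 CPM in S to 3.70 in RV, 3.68-fold higher (2.74 to 5.01), with 0.0910 CPM in RVC and 0.984 in RVT.

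*BAMBI*, *ATOH8*, *HEY1* and *NOG* were split by the same markers. In marker-positive cells *BAMBI* was 2.99-fold (1.68 to 5.79) and *ATOH8* 5.69-fold (2.34 to 18.0025) lower in RV than in S. In the other cells they were 6.59-fold (3.12 to 15.5) and 7.29-fold (4.45 to 12.5) lower. *HEY1* was 2.95-fold (1.75 to 5.31) lower in RV in marker-positive cells and 2.58-fold (1.75 to 3.86) lower in the others. *NOG* was higher in RV in both, by 4.96-fold (2.69 to 9.42) and 2.48-fold (1.75 to 3.59). *BAMBI* itself was 2.34-fold higher in marker-positive than in other S cells (1.60 to 3.49), unlike *ID1* and *ID3*.

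Among the ligands only *BMP2* and *BMP8B* passed a mean of 1 CPM over the 4 libraries, and *BMP3*, *BMP10*, *BMP15* and *GDF2* had no UMI in any library. *BMP2*, a strong activator of SMAD1 and SMAD5, had 4.73, 7.56, 2.58 and 12.2 CPM. *BMP8B* had 3.09, 1.26, 0.273 and 0.433 CPM, lower in RV than in S by 2.45-fold (1.84 to 3.30). In RV the *BMP2* ligand was thus 1.60-fold above S (1.37 to 1.87) while *ID1* and *ID3* were below it. *BMP4*, under the filter and named after its values were seen, had 0.921, 2.04, 0.0910 and 0.512 CPM, 2.22-fold higher in RV than in S (1.58 to 3.13). *BMP7*, under the filter and named in the same way, went the other way, with 24 UMIs in S and 2 in RV.

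None of the 7 receptors and co-receptors that passed a mean of 1 CPM, *BMPR1A* among them, differed 2-fold in RV over S, beside 6.72% of all genes. The type II receptor *BMPR2* had 5.22, 3.19, 24.2 and 30.3 CPM, and the type II receptor *ACVR2A* had 1.83, 1.39, 14.95 and 11.6 CPM. *ACVR1*, another type I receptor, had 2.47, 1.93, 4.49 and 12.2 CPM. The co-receptor *ENG* (endoglin) had 18.2, 15.1, 7.19 and 10.2 CPM. In RVC over S 2 of the 7 were higher (*BMPR2* and *ACVR2A*) and 2 lower (*ENG* and *RGMB*, the latter at 4.42 CPM in S and 1.12 in RVC and named after its values were seen), beside 23.8% and 22.3% of all genes.

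Of the SMADs, *SMAD5* had 14.0, 13.9, 41.6 and 65.3 CPM, and the shared partner *SMAD4* had 6.57, 8.25, 9.49 and 25.6 CPM. *SMAD2* and *SMAD3*, which serve the TGF-beta branch, had 23.8 and 21.2 CPM in S and 28.7 and 28.3 CPM in RV. *SMAD2* then had 17.3 CPM in RVC and 85.0 in RVT, and *SMAD3* 62.8 and 52.5 CPM.

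The inhibitors inside the cell other than *BAMBI* stayed within 2-fold in RV over S. The ubiquitin ligase *SMURF2* had 14.5, 24.4, 27.1 and 31.4 CPM, and its relative *SMURF1* had 3.11, 3.89, 4.82 and 11.3 CPM. The corepressor *SKIL* had 13.8, 9.05, 18.3 and 34.9 CPM, and *SKI* had 9.49, 6.89, 4.91 and 11.2 CPM. Of the secreted antagonists, *FSTL3* was 2.07-fold higher in RV than in S (1.93 to 2.22), at 42.9 against 20.8 CPM. Follistatin (*FST*), which binds activins and some BMPs, had 31.5, 50.4, 0.637 and 78.9 CPM. *TWSG1*, which modulates BMP binding to its antagonists, had 5.08, 7.67, 7.67 and 17.2 CPM.

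**Figure D5:**
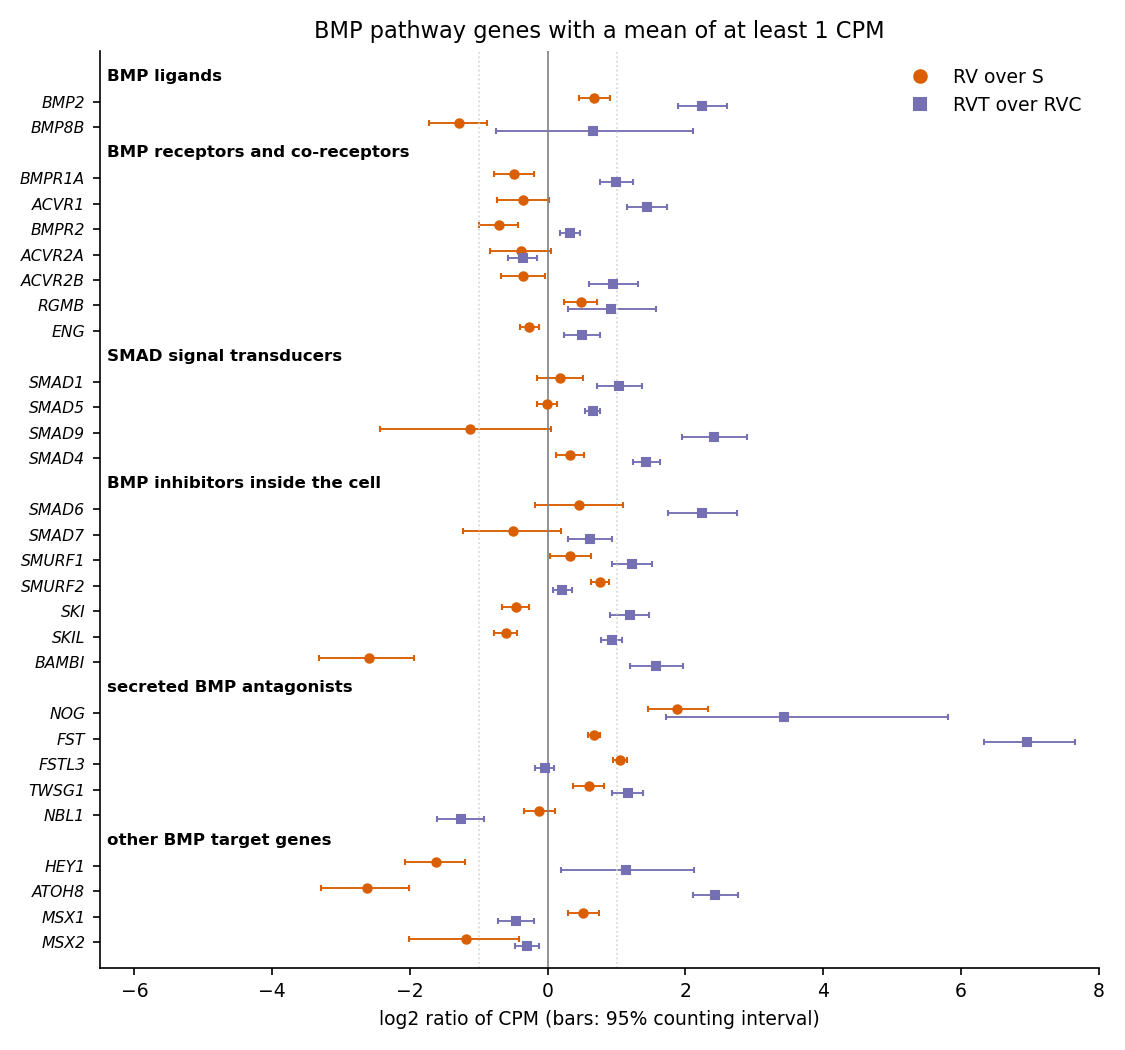
Log2 ratio of CPM of BMP pathway genes with a mean of at least 1 CPM, *BMPR1A*, *SMAD1* and *SMAD6* among them, grouped by role, for RV over S (circles) and RVT over RVC (squares), with 95% counting intervals and dotted lines at 2-fold. In RV over S *BAMBI*, *ATOH8*, *HEY1*, *MSX2*, *SMAD9* and *BMP8B* lie left of the lower limit and *NOG* and *FSTL3* right of the upper one. In RVT over RVC *FST*, *NOG*, *SMAD9* and *ATOH8* lie furthest to the right and only *NBL1* lies left of the lower limit.

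In RVT over RVC, the other comparison between like libraries, 12 of the 26 pathway genes were higher and 1 lower, beside 21.7% of all genes higher and 12.1% lower. Their median log2 ratio was 0.94 against 0.29 for all genes, and with TMM factors 8 were higher and 1 lower. Genes such as *SMAD9*, at 1.46 CPM or less in the other libraries, passed the filter through RVT, and no support is drawn from the count. *ATOH8* was 5.40-fold higher in RVT (4.33 to 6.79), *SMAD9* 5.33-fold (3.87 to 7.46), *BAMBI* 2.99-fold (2.30 to 3.91) and *BMP2* 4.73-fold (3.71 to 6.09). *FST* differed most, 124-fold higher in RVT (80.8 to 201), with 21 UMIs in RVC.

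In RVC over S 7 of the 26 were higher and 6 lower, beside 23.8% and 22.3% of all genes, and with TMM factors 6 were higher and 8 lower. In RVT over S 16 were higher and 3 lower, beside 34% and 21.6% of all genes, and with TMM factors 12 were higher and 5 lower. For all genes the share of calls that were higher fell with TMM factors from 51.7% to 40.9% in RVC over S, from 61.1% to 41.3% in RVT over S and from 64.1% to 44.2% in RVT over RVC, where centring on GC content gave 53.7%. Over genes with a mean of at least 10 CPM, the share higher and the share lower were 1.89% and 1.26% in RV over S, 22.5% and 23.3% in RVC over S, 28.6% and 24.3% in RVT over S, and 15.1% and 11.8% in RVT over RVC.

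The E proteins, which ID proteins bind, did not pass 2-fold in RV over S. *TCF4* had 9.66, 9.62, 40.6 and 50.4 CPM, and *TCF12* had 12.0, 9.31, 12.7 and 25.4 CPM. Of 8 immediate-early genes, which respond within minutes to serum and handling, 1 was higher and 0 lower in RV than in S, beside 6.72% of all genes in either direction. In RVC over S 4 were higher and 3 lower, beside 46.1%, and in RVT over S 3 were higher and 3 lower, beside 55.7%. *FOS* ran at 8.87, 8.19, 50.9 and 68.3 CPM, whereas *JUNB* ran at 106, 88.9, 12.2 and 13.03 CPM. *EGR1* had 22.1, 19.9, 99.1 and 114 CPM and *FOSB* 3.02, 3.24, 40.9 and 67.1 CPM. *IER2* had 118, 162, 69.5 and 41.7 CPM and *IER3* 188, 164, 91.8 and 53.5 CPM. *JUN* had 11.5, 23.2, 33.4 and 13.7 CPM, and *ATF3* had 9.49, 18.6, 2.55 and 8.70 CPM. The *ID* genes are themselves known as early serum-responsive genes, and the part of handling in their levels was not tested.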

How the data were processed

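Single-cell RNA libraries (10x Genomics Chromium v2) of A375 cells were analysed, 4 in all and 1 per condition. Per the labels, the authors processed the reads with bcl2fastq 2.20.0.422 and Cell Ranger on GRCh38, and deposited a table of raw UMI counts, genes by barcodes, for each library. Filters before deposit are not given in the sources used here. The count tables hold 6695 S, 4328 RV, 9266 RVC and 10427 RVT barcodes. For S and RV the paper names fewer cells.

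Barcodes with at least 500 genes and at most 20% mitochondrial UMIs were kept. The top scrublet scores (scanpy 1.11.5) marked doublets, 0.8% for each 1000 barcodes in a table, which were left out. UMIs were summed per library and divided by library totals, which moves every ratio with the makeup of the library. Symbols and positions came from GENCODE 29, promoters from RefSeq. In ratios, a level of 0 was set to 3 UMIs. Intervals are Poisson for CPM, Clopper-Pearson for shares and conditional binomial for ratios. With 1 library per condition no test between conditions was possible. TMM factors came from edgeR 4.0.16 in R 4.3.3 (0.875, 0.901, 1.01 and 1.251 from S through RV and RVC to RVT), phase lists from Seurat 5.3.0. Python 3.11.15, numpy 2.4.6, pandas 2.3.3, scipy 1.17.1 and matplotlib 3.10.9 did the rest. The ratio calculation was tested on counts simulated around S levels. It was read at 1883 genes with at least 50 CPM in S, 200 of them changed 4-fold. Lower genes and shifts in library makeup were not covered.

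The members, lists and rules were chosen with earlier results of these data known. All members were named, and list genes with at least 10 CPM in a library, or past 2-fold in RV over S with a mean of at least 1 CPM. Marker lists are given by their sums, with some of their genes named. *AL022068.1*, *ID2-AS1*, *BMP4*, *BMP7*, *RGMB*, *NBL1* and *TYRP1* were named after their values were seen. Alternatives were other cell filters, scalings, thinning depths, marker numbers and a centring on the GC content of transcript ends.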

Additional observations from a re-analysis of the deposited data

Results flagged for a closer look

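*ID1* and *ID3* went opposite ways from S in the 2 double-resistant libraries. The log2 ratio of RVC over S was -2.97 for *ID1* and -3.71 for *ID3*, and that of RVT over S was 0.21 for *ID1* and 0.68 for *ID3*. Both comparisons share the S library, each rests on 1 library per condition, and the difference between the double-resistant libraries was not tested. With TMM factors *ID1* in RVT lay below S, so that only *ID3* kept the opposite directions.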

How the results depend on the processing

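The counts of all 7 members past 2-fold, with *ID4* set to 3 UMIs where it had none, stayed within 1.5 times under all 7 alternatives run. The count of BMP pathway genes past 2-fold depended on the filter on low genes. With a mean of at least 10 CPM it was 1 of 8 in RV over S and 4 of 8 in RVC over S, beside 3.15% and 45.8% of all genes. It was 6 of 8 in RVT over S and 2 of 8 in RVT over RVC, beside 52.8% and 26.9%. Without a filter it was 18 of 38 in RV over S and 20 of 36 in RVC over S. The share of all genes was not counted without a filter, so nothing is read from these last counts. Fewer or more genes were compared in these settings by construction. Of the 28 member ratios none that passed 2-fold turned its sign under any alternative. TMM factors moved ratios by up to 0.52 on the log2 scale and turned 1 sign, that of *ID1* in RVT over S. Centring on GC content moved them by up to 0.77, most for *ID2* and *ID4* in RVT over S, and put *SMAD6* in RVC over S past 2-fold, with 2 members higher and 3 lower there. *SMAD6* in RVC over S, *SMAD1* and *BMPR1A* in RVT over RVC and *ID4* in RVC over S lay near 2-fold and crossed it under at least 1 alternative. Shares of cells with a UMI moved with the thinned depth, *ID3* in RV being 6.10% at 1000 and 15.7% at 3000 UMIs, and the ratios of *ID1* and *ID3* in the same cell did not leave their intervals at either depth or with another draw. With at least 2 markers, 3 of 6 ratios of *ID1* and *ID3* in marker-positive over other cells left their intervals. With at least 3 *LINC01419* UMIs, 1 of 2 ratios in S did so. Genes with few UMIs, such as *ID4* with 12 in S and *SMAD9* with 9 in RV, have the wide intervals given with them.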
